A study of Mus musculus with 4 samples.

Results

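The mitochondrial respiratory chain was followed in Paneth cells, the antimicrobial cells that sit deepest in the crypts of the small intestine, through the nuclear genes for complexes I to V. Members were chosen by the start of their symbol in the platform annotation, Nduf for complex I, Sdha to Sdhd for complex II, Uqcr for complex III, Cox4 to Cox8 for complex IV and Atp5 for complex V, without use of any measured value. This gave 90 genes of the 18193 named by a probe set with 1 gene. Where several probe sets named a gene, the one brightest on average over the 4 arrays was used. The conventionalized group was male NMRI mice of 8 weeks, kept germ-free and then given the intestinal microbes of a conventionally raised mouse for 10 days. The germ-free group was male NMRI mice of the same age that had stayed germ-free. In both groups Paneth cells were cut out of frozen small intestine by laser, equal amounts of RNA from 3 mice were joined in 1 pool, and from each pool 2 portions of 10 ng were amplified, each for its own Affymetrix Mouse430_2 array. The 2 arrays of a group therefore repeat 1 pool, and every p-value below measures amplification and array error, not the spread between mice.

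The respiratory chain sits in the inner mitochondrial membrane. Complexes I and II pass electrons from NADH and succinate to coenzyme Q, complex III passes them on to cytochrome c, and complex IV passes them to oxygen. Complexes I, III and IV pump protons, and complex V, the ATP synthase, lets the protons flow back and makes ATP. Most subunits are encoded in the nucleus and imported, and a few core subunits are encoded by mitochondrial DNA. In the small intestine the chain serves cells with a heavy load of absorption or secretion, Paneth cells among them.

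Respiratory chain genes mostly had a little more signal in the conventionalized pool, but none passed the test, and the direction rested on 1 germ-free array. Signals were compared as log2(signal + 32) with limma over all 22491 probe sets whose mean signal lay above 113.9, and calls were made at an adjusted p (Benjamini-Hochberg) under 0.05. Of the 90 genes, 84 were tested and 0 were called, where 0.333% of all probe sets tested were called in either direction. At an unadjusted limma p under 0.05 there were 2 of the 84 members, Ndufab1 and Sdhc, where 1154 of all 22491 probe sets were. Limma without the variance trend and limma with its prior set to 4 degrees of freedom gave 0 calls among members as well. The median log2 difference, conventionalized minus germ-free, was 0.30 over the 84 members and 0.00022 over all 12113 genes tested. It was above 0 in 70 members, or 83.3%, where 50.0% of all genes were above 0. Both conventionalized arrays lay above both germ-free arrays in 23 members, or 27.4%, where the share of all genes was 15.9%. Both lay below in 5 members, or 5.95%, where the share of all genes was 16.1%, and these were Ndufa4l2, Ndufa9, Ndufaf3, Sdhc and Cox7a1. In the other 56 members the groups overlapped. The difference was smaller than its standard error in 60 of the 84, and at least 2-fold in 2, Uqcrb and Sdhc.

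Array by array the members split as follows. The median signal of the tested members was 3470.4 on conventionalized replicate 1, 2808 on conventionalized replicate 2, 2372 on germ-free replicate 1 and 3284 on germ-free replicate 2. Germ-free replicate 1 was the lowest of the 4 arrays in 65 members, or 77.4%, where it was the lowest for 22.2% of all genes tested. The other arrays were lowest in 3 (conventionalized replicate 1), 13 (conventionalized replicate 2) and 3 (germ-free replicate 2) members. The highest value was spread over the other arrays, on conventionalized replicate 1 in 26 members, on conventionalized replicate 2 in 27 and on germ-free replicate 2 in 25, with 6 for germ-free replicate 1. Against germ-free replicate 2 alone the members' median log2 difference was -0.02, with 39 of 84 above 0, where the median over all genes tested was 0.03. Against germ-free replicate 1 alone the members' median was 0.66, with 72 of 84 above 0, where that over all genes tested was -0.08. The germ-free duplicates themselves, which are the same RNA pool, differed by a median of 0.68 (replicate 2 minus replicate 1), and in 64 of the 84 members that distance was larger than the difference between the pools. A distance between 2 single arrays varies more than a difference between means of 2 arrays, and the share over all genes is not given here.

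**Figure D1:**
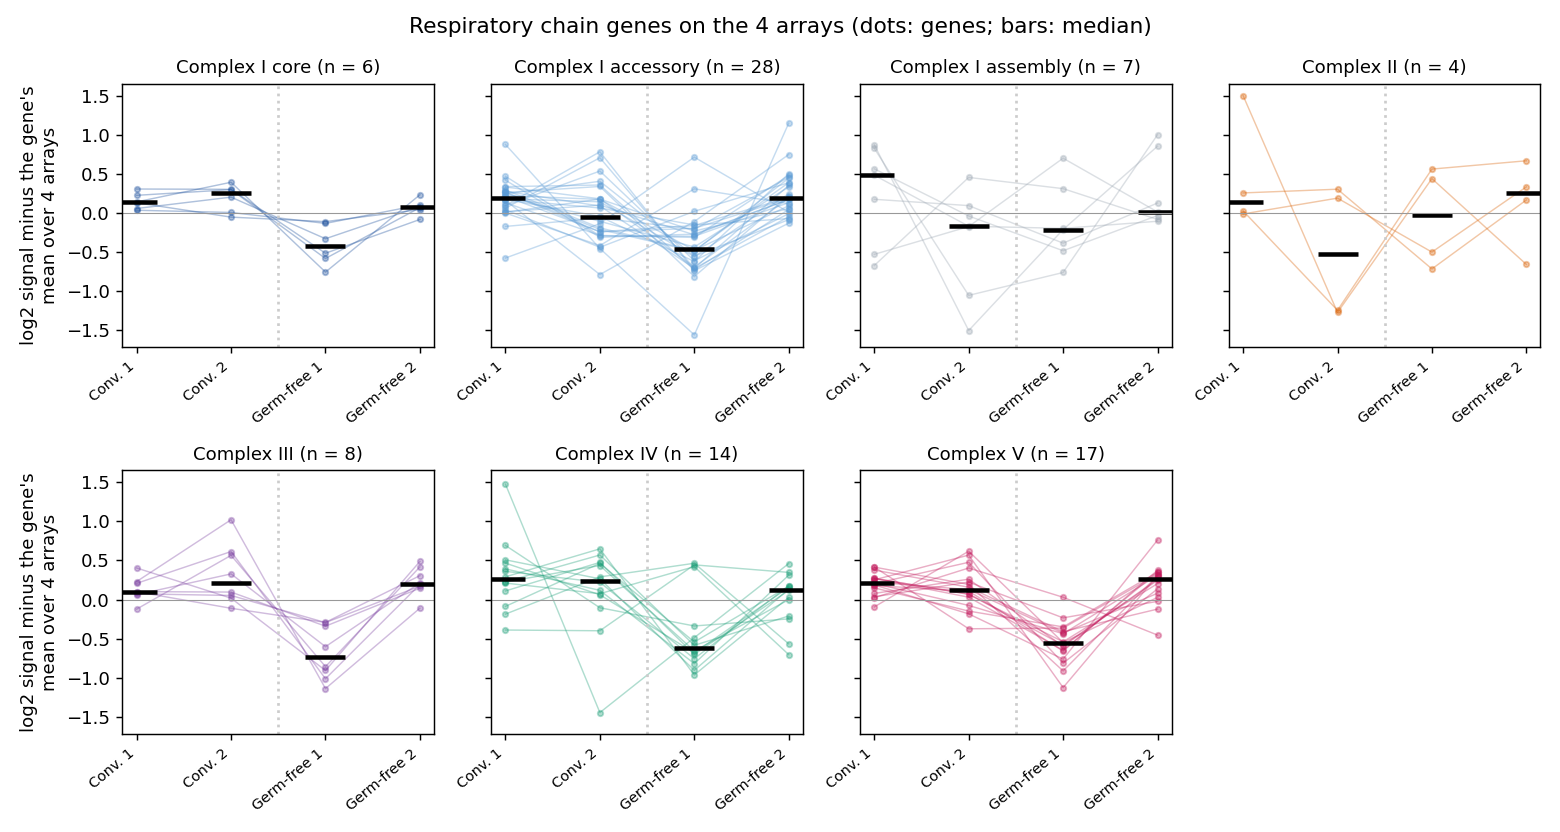
Signal of each tested respiratory chain gene on the 4 arrays, by complex: the vertical axis is log2(signal + 32) minus the gene's own mean over the 4 arrays, dots joined by a line are 1 gene, and black bars are medians. Germ-free replicate 1 is the low array in 65 of the 84 genes, while over all 84 genes the median differences from germ-free replicate 2 are 0.02 for conventionalized replicate 1 and -0.07 for conventionalized replicate 2. In complex IV both lie above it, by medians of 0.29 and 0.22.

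Most members are bright, and the direction of other genes varied with signal. Of the 1212 brightest genes (mean signal above 1665), among them 53 of the 84 members, 55.9% were above 0 with a median of 0.07, beside 49 of the 53 members with a median of 0.35. Germ-free replicate 1 was lowest in 53.0% of these 1212 genes, and the germ-free duplicates differed by a median of 0.57. Among genes with a mean signal over 20000, 97.1% of 69 genes were above 0 with a median of 0.89, and the 8 members there were all above 0 with a median of 0.72. Between 5000 and 20000, 63.1% of 355 genes were above 0 with a median of 0.17, and all 31 members were, with a median of 0.37. Between 1000 and 5000, 47.2% of 1636 genes were above 0 with a median of -0.03, beside 18 of 25 members with a median of 0.20. Under 1000, the shares were 49.7% of 10053 genes and 13 of 20 members, with medians of -0.0049 and 0.14. Against germ-free replicate 2 alone the median of the 1212 brightest genes was -0.22. In the same comparison genes had medians of 0.09 under 1000, -0.24 up to 5000, -0.18 up to 20000 and 0.40 over 20000. The members' medians in these ranges were -0.0093, -0.20, 0.02 and 0.24. Across the 84 members, which share the same 4 arrays, Spearman's rho of mean signal with the log2 difference was 0.45, given as a description. With quantile normalization, which makes the signal distributions of the 4 arrays equal, the members' median was 0.09 and 53 of 84 were above 0. It turned 11 of the members described below from above to below 0: Uqcrb, Cox5a, Cox6a1, Cox6b1, Cox7a2, Ndufa13, Ndufb7, Ndufv1, Atp5d, Atp5g3 and Atp5j2.

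**Figure D2:**
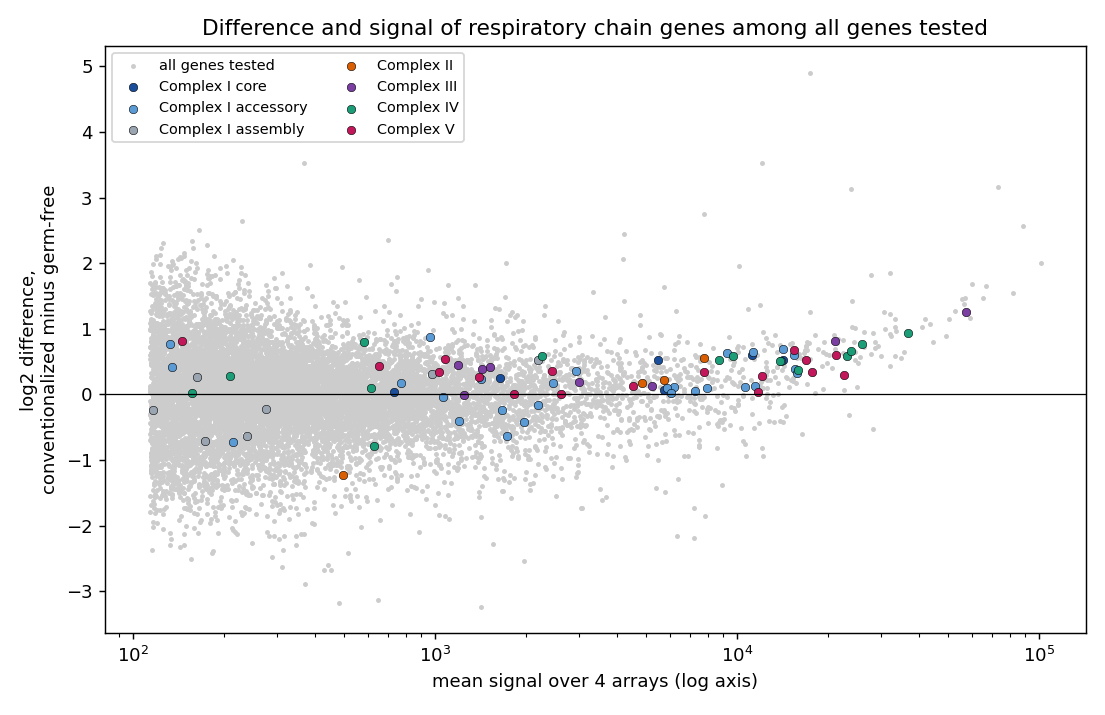
Log2 difference (conventionalized minus germ-free) against mean signal over the 4 arrays on a log axis, with all 12113 genes tested in grey and respiratory chain genes coloured by complex. Above a mean signal of 20000 almost all genes lie above 0, and the 8 respiratory chain genes there lie among them.

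Paneth cell identity and RNA quality were checked on the same arrays. Of 22 Paneth markers listed, 12 had a probe set and 11 were tested. All 11 were above 0, Reg3g and Mptx1 were called, and the summed signal was 309143 and 685831 on the conventionalized arrays, against 67358 and 149243 on the germ-free arrays. None of the 12 was listed at 0, and Defa3, an alpha-defensin, lay under the signal filter. Absorptive enterocyte markers were also present, with sums of 120939 and 274131 in conventionalized and 109138 and 200512 in germ-free cells. Their median was -0.54, and 2 of their 13 tested members were above 0, Fabp2 and Apoa4, while Apoc3 was called lower. Fabp2 was the largest part of both conventionalized sums, with 51528 and 142558 in conventionalized and 20981 and 45252 in germ-free cells. Goblet cell markers, 10 tested, had 8 above 0 and Retnlb called. The 2 below 0 were Clca1 at -1.29, without overlap, and Muc2 at -0.34. The list's sums were 132140.0 and 221776 in conventionalized and 51790.3 and 94077 in germ-free cells. Zg16 was the largest part of each, with 57300.5 and 145448 in conventionalized and 19257 and 43750 in germ-free cells. Of 8 tested proliferation markers 7 were above 0, with a median of 0.52 and sums of 19859 and 15673 in conventionalized and 11096 and 15435 in germ-free cells. Of the plasma and B cell markers, 4 tested, 3 were above 0. Igha, the IgA heavy chain, was called at 2.44 ± 0.44 (limma adjusted p = 5.55e-05). Ms4a1, the 1 below 0, stood at -1.58, without overlap. The sums of this list were 7979 and 9632 in conventionalized and 2486 and 2520.3 in germ-free cells. Macrophage and dendritic cell markers had 4 of 4 tested above 0 with a median of 0.67. Their sums were 19580.1 and 17763 in conventionalized and 8129.8 and 9266 in germ-free cells. Lyz2 made up most of each sum, with 15930 and 14914 in conventionalized and 5627 and 6963 in germ-free cells. Csf1r, Adgre1 and Cd14 differed by 0.26, 0.54 and 0.79. Enteroendocrine markers had 8 of 10 below 0 with a median of -0.53, with sums of 4699 and 4151 in conventionalized and 5739 and 7303 in germ-free cells. The ratio of 3′ to 5′ control probe sets, a sign of how far amplified RNA is cut short, was 63.7 and 116 for beta-actin on the conventionalized arrays, against 39.2 and 44.9 on the germ-free arrays. For Gapdh it was 9.39 and 6.43 in conventionalized cells, against 6.29 and 10.3 in germ-free cells. The conventionalized arrays ran on fluidics station 2 and the germ-free arrays on station 1, and these cannot be told apart from the groups. The part of these lists, ratios and stations in the members' values was not tested. In RNA of captured cells, fewer cells of a type and less RNA per cell cannot be told apart.

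Beside their place in the chain, some members held short motifs near their transcription starts. RefSeq promoter windows of build GRCm38.p6, from 250 bases before to 50 after the start, were at hand for 74 of the 90 genes, and 3 motifs were searched on both strands in every window of a gene. GCGCATGCG, bound by nuclear respiratory factor 1 (NRF1), stood in the windows of 9 members, or 12.2%, against 1.95% of all 27025 genes with a window and 2.61% of the 17492 coding ones. CCGGAAG, bound by ETS factors such as GA-binding protein, stood in 19 members, or 25.7%, against 9.93% of all genes and 12.9% of coding genes. AAGATGGC, part of the YY1 motif, stood in 10 members, or 13.5%, against 3.19% of all genes and 3.57% of coding genes. The last 3 letters of the ETS motif are the first 3 of the YY1 motif, so matches can overlap, and the NRF1 motif reads nearly the same on both strands and can match itself at a shift of 1 base. At least 1 motif stood in 32 members, and the NRF1 and ETS motifs stood together in 4. A match is a description of letters, not of a bound factor. The 5 stretches that follow are shown because they hold the NRF1 motif, the ETS motif or both in genes of complexes I, III, IV and V that are described further on. Capitals mark the motif on either strand.
Cox6a1, chr5:115348953-115349135, minus strand: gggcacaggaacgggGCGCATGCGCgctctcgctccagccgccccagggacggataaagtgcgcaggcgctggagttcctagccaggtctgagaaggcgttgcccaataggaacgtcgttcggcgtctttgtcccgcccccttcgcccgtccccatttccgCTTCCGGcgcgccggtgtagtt
Uqcr11, chr10:80406812-80406902, minus strand: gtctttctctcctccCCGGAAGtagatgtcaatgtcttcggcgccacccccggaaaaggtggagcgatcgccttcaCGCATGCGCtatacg
Atp5g2, chr15:102671065-102671104, minus strand: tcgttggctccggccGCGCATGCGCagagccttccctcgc
Ndufb7, chr8:83566723-83566759, plus strand: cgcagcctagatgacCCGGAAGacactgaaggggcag
Atp5h, chr11:115419936-115419972, minus strand: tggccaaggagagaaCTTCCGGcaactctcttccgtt

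The YY1 motif mostly lay in the first transcribed bases. In 8 of the 10 members it lay on the gene's own strand just after the start, with its first base between positions 11 and 39, counted from 1 at the first transcribed base. The next stretches, each of 30 bases, are shown for that shared place, with the motif in capitals.
Ndufs7, chr10:80249462-80249491, plus strand: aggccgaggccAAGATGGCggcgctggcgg
Ndufa3, chr7:3617384-3617413, plus strand: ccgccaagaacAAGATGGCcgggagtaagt
Ndufa9, chr6:126849097-126849126, minus strand: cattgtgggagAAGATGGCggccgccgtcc

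Members with and without each motif were set side by side. The 8 tested members with the NRF1 motif had a median log2 difference of 0.32, against 0.34 in the 61 without it. The 19 with the ETS motif had 0.34, against 0.30 in the 50 without it. The 10 with the YY1 motif had 0.08, against 0.35 in the 59 without it. These medians were not tested against each other.

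Complex I, the NADH dehydrogenase, had 43 members, in 6 core subunits, 29 accessory subunits and 8 assembly factors. The 6 core subunits carry the NADH-binding and quinone-reducing steps. All 6 were above 0 with a median of 0.39, and germ-free replicate 1 was the lowest array in all 6. Without that array the median was 0.04. Ndufs8 (gene identifier 225887), an iron-sulphur subunit, had signals of 13470.3 and 13436 on the conventionalized arrays, against 7605 and 10275 on the germ-free arrays, which did not overlap. Its log2 difference was 0.60 ± 0.59 (SE, 2 arrays per group; limma adjusted p = 0.999). Ndufs7, the iron-sulphur subunit beside the quinone site, had 6226 and 6549 in conventionalized, against 3541 and 5580.0 in germ-free cells, also without overlap, a difference of 0.52 ± 0.49. A second tested probe set of Ndufs7 differed by -0.02. Ndufv2, an iron-sulphur subunit of the NADH-binding part, read 14938 and 17785 in conventionalized, against 7998 and 15909.5 in germ-free cells. There the germ-free duplicates lay further apart than the pools, whose difference was 0.53 ± 0.63. Ndufv1, which binds NADH and FMN, read 6267 and 5513 in conventionalized, against 5296 and 5898 in germ-free cells, an overlap with a difference of 0.07 ± 0.50.

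Accessory subunits surround this core. Of 28 tested, 21 were above 0 and 7 below, with a median of 0.15, or -0.14 without germ-free replicate 1. Leaving out conventionalized replicate 1 instead gave -0.02. Groups did not overlap in 8 higher and 2 lower members, or 28.6% and 7.14%, where the shares of all genes were 15.9% and 16.1%. Ndufab1, the mitochondrial acyl carrier protein that is also a subunit, had 957 and 1558 on the conventionalized arrays, against 522 and 812 on the germ-free arrays, the largest difference of the complex at 0.87 ± 0.42 (limma adjusted p = 0.927). It was 0.57 against germ-free replicate 2 alone, and its 3 tested probe sets ran from -0.36 to 0.87. Ndufc2, a membrane arm subunit, had 17190.4 and 17437 in conventionalized, against 8194 and 14032 in germ-free cells and differed by 0.69 ± 0.63, and its 3 probe sets ran from 0.27 to 0.69. Ndufb11, another membrane arm subunit, had 17594 and 18554 in conventionalized, against 8324 and 17121 in germ-free cells and differed by 0.60 ± 0.65. In both, the conventionalized arrays lay above both germ-free arrays. Ndufa13, also known as Grim19, had 17791 and 17192 in conventionalized, against 10928 and 16239.5 in germ-free cells, without overlap, and a difference of 0.39 ± 0.66 (-0.08 after quantile normalization). Ndufb7, whose ETS motif is printed above, had 17504 and 17051 in conventionalized, against 10472 and 18307 in germ-free cells, with germ-free replicate 2 the highest of the 4, a difference of 0.32 ± 0.66. In the other direction Ndufa4l2, counted here by its symbol and known as a hypoxia-induced relative of Ndufa4, had 125 and 180.4 in conventionalized, against 351 and 203 in germ-free cells, without overlap. Its difference was -0.72 ± 0.63, with signals near the filter. Ndufb4 had 79.4 and 191 in conventionalized and 123 and 47 in germ-free cells and was not tested. The other 22 tested accessory subunits lay between -0.63 (Ndufa10) and 0.76 (Ndufb1).

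The assembly factors build complex I without staying in it. Of 7 tested, 3 were above 0 and 4 below (median -0.22), and their signals were mostly low. It moved toward or past 0 whichever array was left out, to -0.03 without germ-free replicate 1, 0.35 without germ-free replicate 2, -0.02 without conventionalized replicate 1 and 0.55 without conventionalized replicate 2. Ndufaf8, an assembly factor tied to Ndufaf5, had 3135 and 2052 in conventionalized, against 1499 and 2061 in germ-free cells and differed by 0.52 ± 0.42, an overlap by a narrow margin. Ndufaf4, which acts early in assembly, had 1348 and 845 in conventionalized, against 829 and 885 in germ-free cells and differed by 0.31 ± 0.42, with 1 high conventionalized array. Ndufaf1, which helps to build the membrane arm, had 152 and 371 in conventionalized, against 333 and 246 in germ-free cells and differed by -0.22 ± 0.55. Duplicates disagreed for Ndufaf2, a relative of a structural subunit that binds late intermediates, with 376 and 46.5 in conventionalized, against 160.3 and 371 in germ-free cells and a difference of -0.64 ± 0.65. Ndufaf3, an early assembly factor like Ndufaf4, had 104 and 141 in conventionalized, against 286 and 165 in germ-free cells, and differed by -0.71 ± 0.72. It was the only one of the 7 whose groups did not overlap, or 14.3%, where 16.1% of all genes lay lower without overlap. Ndufaf5 was not tested, at 245 and 21.2 in conventionalized and 113 and 16.3 in germ-free cells.

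Complex II, succinate dehydrogenase, is the one complex that is also an enzyme of the citric acid cycle and that has no subunit from mitochondrial DNA. Its 4 genes differed in sign and in how well duplicates matched. Sdha, the subunit that holds FAD and oxidizes succinate, had 4702 and 5416 on the conventionalized arrays, against 3344 and 5987 on the germ-free arrays, an overlap with a difference of 0.17 ± 0.48. Sdhb, the iron-sulphur subunit, had 8956 and 9257 in conventionalized, against 4547 and 8409.9 in germ-free cells, and both conventionalized arrays were higher, a difference of 0.56 ± 0.53. Sdhc and Sdhd anchor the complex in the membrane and bind quinone. Sdhc had 445 and 165 in conventionalized, against 659 and 712 in germ-free cells, without overlap, and was the lowest of all 84 members at -1.22 ± 0.48 (limma adjusted p = 0.573). A second probe set of Sdhc differed by -0.53. Its difference was -1.28 against germ-free replicate 2 alone and -1.17 against germ-free replicate 1 alone. It was -0.59 without conventionalized replicate 2 and -1.86 without conventionalized replicate 1. Sdhd had 12458 and 1793 in conventionalized, against 5947 and 2761 in germ-free cells, so that its duplicates lay further apart than the pools, which differed by 0.22 ± 0.47. 

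Complex III, the cytochrome bc1 complex, had 8 members, and 7 were above 0 with a median of 0.41. Germ-free replicate 1 was the lowest array in all 8, and without it the median was -0.08, with 2 of 8 above 0. Uqcrb, a small subunit that binds ubiquinone, was the highest difference of all members at 1.25 ± 1.01 (limma adjusted p = 0.999). Its signals were 58514 and 101271 on the conventionalized arrays, against 22617 and 46193 on the germ-free arrays, without overlap, and the conventionalized duplicates lay far apart. It was the brightest member, its second tested probe set differed by -0.26, and quantile normalization turned its difference to -0.29. Uqcrc2, a core subunit, had 22614 and 29992 in conventionalized, against 9683 and 22396 in germ-free cells and differed by 0.82 ± 0.71, again without overlap. Uqcrq, a small subunit of the complex, had 5478 and 5398 in conventionalized, against 4236 and 5866 in germ-free cells and differed by 0.12 ± 0.48, with germ-free replicate 2 the highest array. Uqcr11, another small subunit, had 3189 and 3177 in conventionalized, against 2338 and 3289 in germ-free cells and differed by 0.20 ± 0.44. Its promoter, printed above, holds the NRF1 and ETS motifs, and its signals were level on all arrays but germ-free replicate 1. The remaining members, among them the Rieske iron-sulphur protein Uqcrfs1 at 0.42 (-0.28 without germ-free replicate 1), lay between -0.01 (Uqcrc1, the other core subunit) and 0.44 (Uqcr10, -0.20 without germ-free replicate 1).

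Complex IV, cytochrome c oxidase, had 18 members, of which 14 were tested. Its median of 0.55 was the highest of the 7 classes, and 13 of 14 were above 0. The groups did not overlap in 6 higher members and 1 lower, or 42.9% and 7.14%. The same shares of all genes were 15.9% and 16.1%. Without germ-free replicate 1 the median was 0.21, with 11 of 14 above 0. With quantile normalization it was 0.04, beside 0.25 in the complex I core. The mean of all tested probe sets of each gene gave 0.37, beside 0.43 in complex III. Complex IV was thus not the highest class in either. Cox6a1, the form of subunit 6a found in most tissues, whose promoter printed above holds the NRF1 and ETS motifs, had 41666 and 53404 on the conventionalized arrays, against 17428 and 34694 on the germ-free arrays, without overlap, a difference of 0.94 ± 0.87. Its second tested probe set differed by -0.53, and quantile normalization gave -0.07. Cox5a, a subunit at the matrix face, had 34798 and 29396 in conventionalized, against 13037 and 26833 in germ-free cells and differed by 0.77 ± 0.77, its 3 probe sets ran from 0.37 to 0.77, and quantile normalization gave -0.0029. Cox7a2, the form of subunit 7a found in most tissues, had 26912 and 31140.0 in conventionalized, against 14581 and 22989 in germ-free cells and differed by 0.66 ± 0.76, with 0.63 at its other probe set and -0.10 after quantile normalization. Cox6b1, which helps to join 2 copies of the complex, had 23862 and 30747 in conventionalized, against 13583 and 23974 in germ-free cells, an overlap, and differed by 0.59 ± 0.74 (-0.19 after quantile normalization). Cox4i1, the usual form of subunit 4, had 17334 and 14326 in conventionalized, against 7464 and 16391 in germ-free cells, where germ-free replicate 2 lay between the conventionalized arrays, and differed by 0.51 ± 0.62. Cox8a, the usual form of subunit 8, had 3527 and 2016 in conventionalized, against 1710.4 and 1823 in germ-free cells, with 1 high conventionalized array and no overlap, and differed by 0.59 ± 0.42. Ndufa4, named for complex I and since assigned to complex IV, had 657 and 841 in conventionalized, against 359.8 and 476 in germ-free cells, without overlap. Its difference was 0.80 ± 0.45 (limma adjusted p = 0.999), 0.61 against germ-free replicate 2 alone and 0.88 with quantile normalization.

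Forms of complex IV subunits known from other tissues had mean signals from 19.5 (Cox8b) to 629 (Cox7a1). Cox7a1, the heart and skeletal muscle form of subunit 7a, had 454 and 450.5 in conventionalized, against 834 and 778 in germ-free cells, without overlap, and its duplicates lay close together in both pools. Its difference of -0.79 ± 0.45 (limma adjusted p = 0.999) ran from -0.84 to -0.74 with any 1 array left out, and it was -0.77 with quantile normalization. The smooth muscle markers, 4 tested of 6, had a median of -0.61, with sums of 1401 and 2696 in conventionalized and 4168 and 3044 in germ-free cells, with 1 of the 4 above 0. Of 10 striated muscle markers 3 were tested, and the sums of the list were 911 and 1300.2 in conventionalized and 774 and 499 in germ-free cells. The part of either list in Cox7a1 was not tested. Cox6a2, the heart and muscle form of subunit 6a, had 236 and 212 in conventionalized, against 278 and 110.2 in germ-free cells and differed by 0.28 ± 0.63, with duplicates that overlapped. Cox8c, a further form of subunit 8, had 514 and 728 in conventionalized, against 825 and 388 in germ-free cells and differed by 0.10 ± 0.45. Under the filter, with no test, were Cox4i2 (66.3 and 10.2 in conventionalized, against 223 and 22.5 in germ-free cells), a form induced by low oxygen, and the testis form Cox6b2 (87.5 and 174 in conventionalized, against 76.5 and 6.6 in germ-free cells). Cox7b2, known as a testis form in humans, had 35.3 and 103 in conventionalized, against 24.7 and 37.3 in germ-free cells. Cox8b, the heart and muscle form of subunit 8, had 9.9 and 10.2 in conventionalized, against 19.3 and 38.7 in germ-free cells.

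Complex V, the ATP synthase, had 17 members, all tested and all above 0, with a median of 0.34. Germ-free replicate 1 was the lowest array in 15 of 17. Without it the median was -0.03 and 7 of 17 were above 0. Subunit c, the rotor ring in the membrane, is made from 3 genes whose mature products are identical. Atp5g1 had 1382 and 1182 on the conventionalized arrays, against 787 and 968 on the germ-free arrays, without overlap, a difference of 0.53 ± 0.42. Atp5g2 had 648 and 853 in conventionalized, against 651 and 456 in germ-free cells and differed by 0.43 ± 0.44, and it was 1 of 2 members of the complex in which germ-free replicate 1 was not the lowest. Atp5g3 had 26214 and 22211 in conventionalized, against 13860.1 and 27773 in germ-free cells, with germ-free replicate 2 the highest of the 4, and differed by 0.30 ± 0.74 (-0.40 after quantile normalization). Of the stalk, Atp5h, the d subunit, had 26728 and 22924 in conventionalized, against 10624 and 24787 in germ-free cells and differed by 0.61 ± 0.72, which was -0.0020 against germ-free replicate 2 alone. Atp5d, the delta subunit of the central stalk, had 15209 and 24952 in conventionalized, against 11080.0 and 16550.5 in germ-free cells and differed by 0.52 ± 0.67, with -0.23 at its other probe set and -0.02 after quantile normalization. Atp5j2, the f subunit of the membrane part, had 20926 and 18124 in conventionalized, against 11895 and 19950.2 in germ-free cells and differed by 0.34 ± 0.68 (-0.23 after quantile normalization). Atp5l, the g subunit, had the largest difference of the complex at 0.82 ± 0.87, from dim signals of 162 and 209.6 in conventionalized, against 42.6 and 169.5 in germ-free cells. Atp5a1, the alpha subunit of the head, had 13178 and 12562 in conventionalized, against 7360.0 and 15112 in germ-free cells and differed by 0.29 ± 0.60, or -0.23 without germ-free replicate 1. Atp5b, the beta subunit with the catalytic sites, had 1937 and 1491 in conventionalized, against 987 and 2899 in germ-free cells, so that both conventionalized arrays lay between the germ-free duplicates, and differed by 0.0029 ± 0.42, or -0.76 without germ-free replicate 1.

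**Figure D3:**
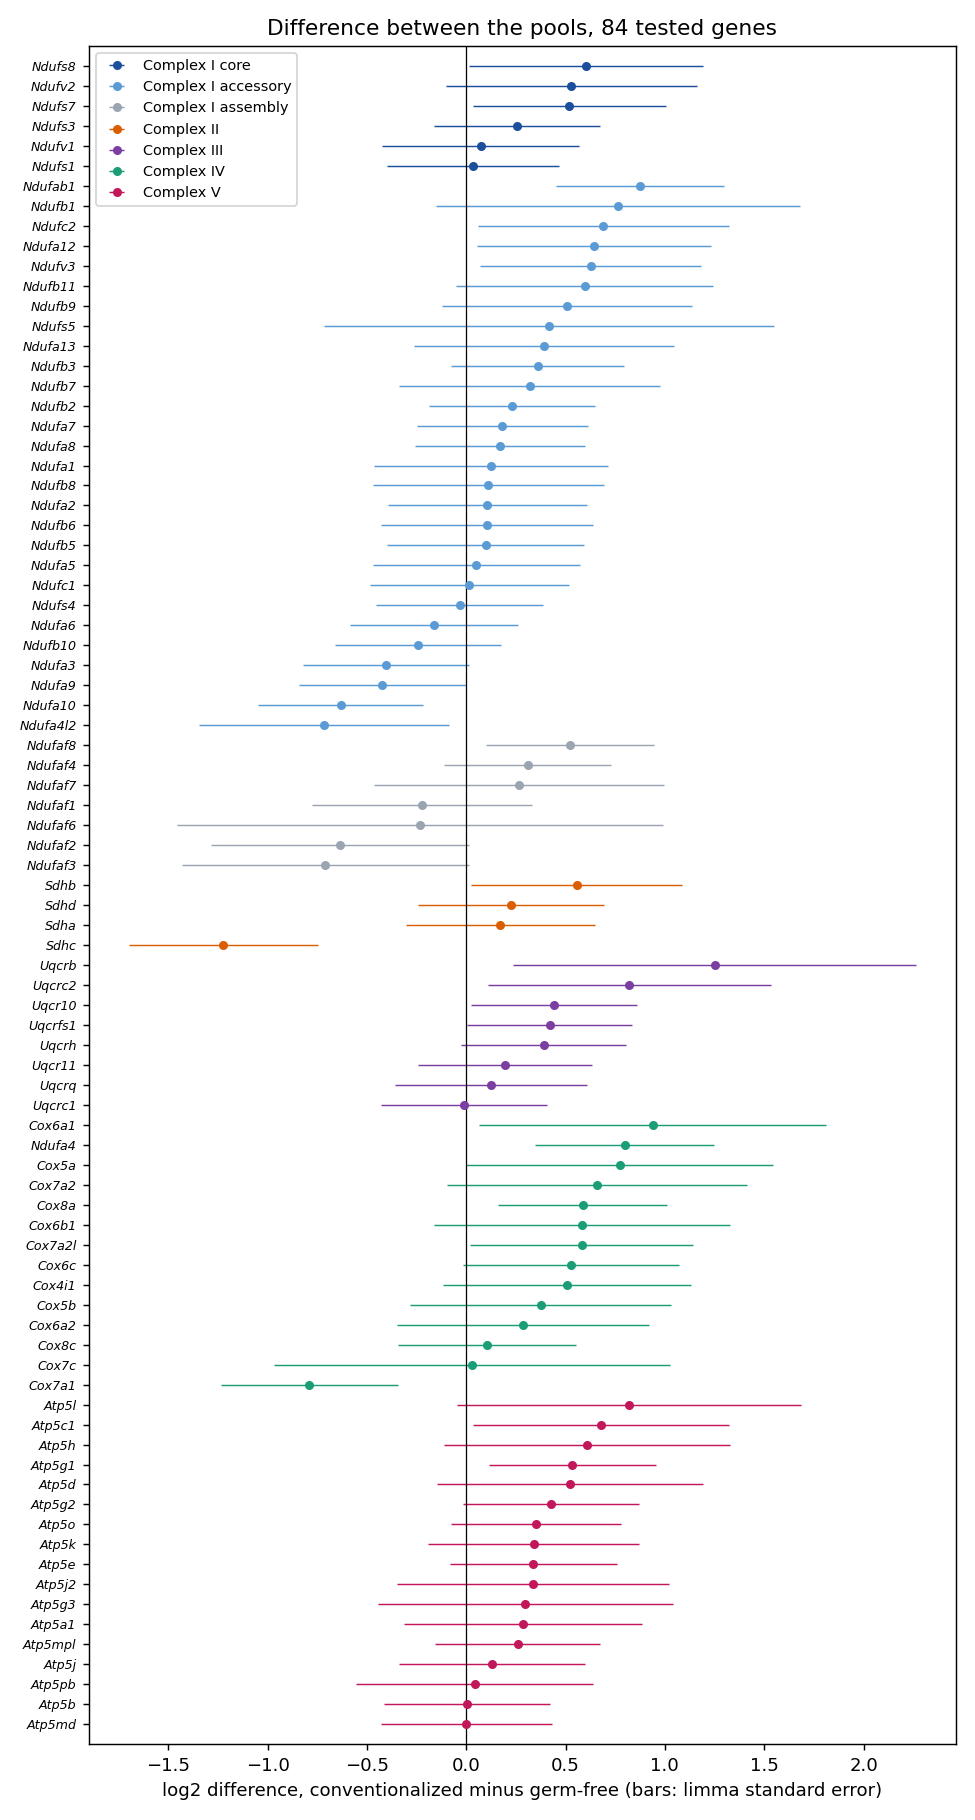
Log2 difference, conventionalized minus germ-free, of each of the 84 tested genes with its limma standard error, grouped by complex from I at the top to V at the bottom. All 6 complex I core and all 17 complex V genes lie above 0 at this scaling, most bars cross 0, and Uqcrb (1.25) and Sdhc (-1.22) are the extremes.

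The distance between the germ-free duplicates showed in every complex. Germ-free replicate 2 exceeded replicate 1 by a median of 0.92 in complex III, 0.77 in complex IV and 0.75 in complex V. In complex I the medians were 0.42 for core subunits, 0.64 for accessory subunits and 0.45 for assembly factors, and in complex II it was 0.47. Against germ-free replicate 1 the conventionalized arrays stood higher by 0.94 in complex III, 0.97 in complex IV, 0.76 in complex V, 0.64 in the complex I core and 0.51 in its accessory subunits. Against germ-free replicate 2 the same medians were -0.08, 0.21, -0.03, 0.04 and -0.14.

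**Figure D4:**
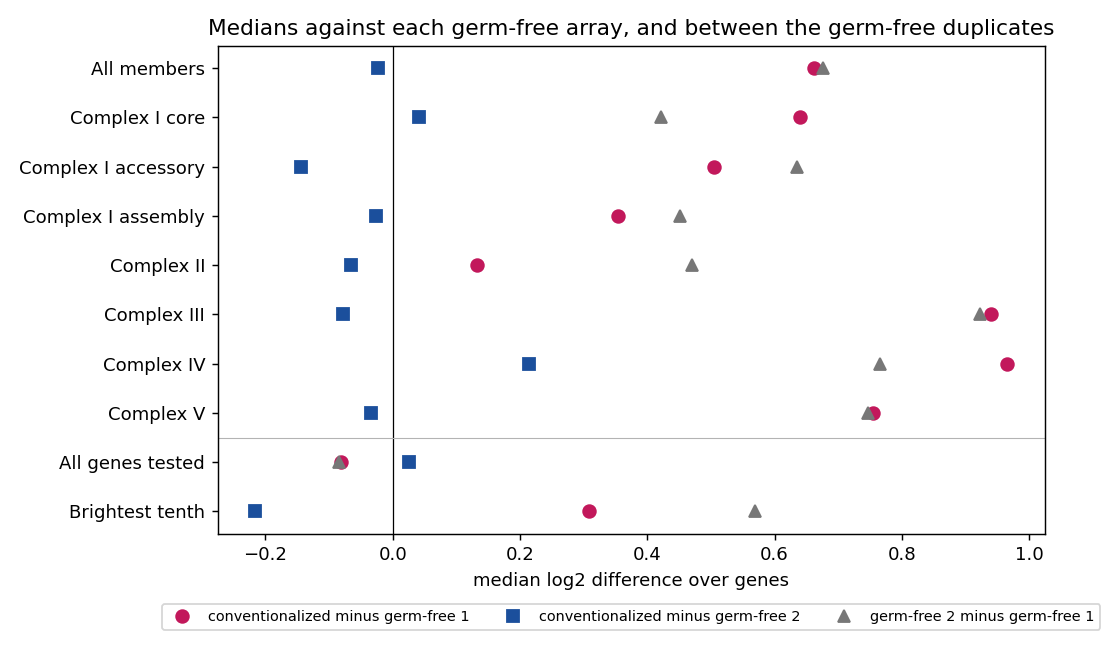
Median log2 difference over the genes of each class: the mean of both conventionalized arrays minus germ-free replicate 1 (circles), minus germ-free replicate 2 (squares), and germ-free replicate 2 minus replicate 1 (triangles), with all genes tested and the 1212 brightest genes below the line. In complexes III and V the circles and triangles nearly coincide and the squares lie near 0.

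More than 1 tested probe set was present for 47 members, and in 33 of these all probe sets had the same sign. The other 14, among them Uqcrb, Cox6a1, Atp5d, Ndufab1, Ndufb7 and Uqcrq, had probe sets of both signs. Averaging all tested probe sets of a gene gave a median of 0.28, with 67 of 84 members above 0.

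Genes that work beside the chain gave mixed values, and none of the other mitochondrial lists held a called gene. Cytochrome c1 (Cyc1), the complex III subunit outside the symbol rule, had 14757 and 19747 in conventionalized, against 6988 and 11881 in germ-free cells and differed by 0.90 ± 0.61. Cytochrome c (Cycs), the carrier between complexes III and IV, had 36476 and 46215 in conventionalized, against 16102 and 30740.5 in germ-free cells and differed by 0.88 ± 0.84. In both, the conventionalized arrays lay above both germ-free arrays, and quantile normalization turned Cycs to -0.08. ND5, the sole subunit from mitochondrial DNA with a probe set of its own here, had 11250.4 and 7868 in conventionalized, against 8648 and 12648 in germ-free cells, an overlap with a difference of -0.15 ± 0.57. Atpif1, the inhibitor of the ATP synthase, had 12644 and 10990.1 in conventionalized, against 7926 and 15379.5 in germ-free cells and differed by 0.09 ± 0.60, a sign that turned to -0.14 with quantile normalization. Of the ADP/ATP carriers, Slc25a4 had 522 and 639 in conventionalized, against 1023 and 1492 in germ-free cells, without overlap, a difference of -1.06 ± 0.43 (limma adjusted p = 0.645), and Slc25a5 had 14422 and 17903 in conventionalized, against 8172 and 14791 in germ-free cells, a difference of 0.55 ± 0.63.

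Of 36 tested assembly factors outside the rule, 22 were above 0 with a median of 0.15, and Bcs1l, which inserts the Rieske protein into complex III, differed by 1.07 ± 0.48 from signals of 578 and 626 in conventionalized, against 417 and 172 in germ-free cells. Coa4, a complex IV assembly factor, stood at -0.90. Of 16 citric acid cycle and pyruvate dehydrogenase genes, 11 were above 0 with a median of 0.17, with Mdh2, malate dehydrogenase, at 0.80 (-0.07 with quantile normalization) and Ogdh, a subunit of the 2-oxoglutarate dehydrogenase complex, at -0.89. Of 14 regulators of mitochondrial biogenesis, 8 were above 0 with a median of 0.03. Tfam, which packs mitochondrial DNA and helps to start its transcription, had 1813 and 992 in conventionalized, against 576 and 1056 in germ-free cells and differed by 0.76 ± 0.42. Tfb2m, its partner in transcription, had 380.5 and 41.5 in conventionalized, against 439.5 and 333 in germ-free cells and differed by -1.25 ± 0.58. Of 18 import and dynamics genes 9 were above 0 with a median of 0.01, and Immt, of the crista junctions, had 341 and 154 in conventionalized, against 572 and 612 in germ-free cells, without overlap, a difference of -1.25 ± 0.49, while Timm50, of the inner membrane import channel, stood at -0.97. Of 9 coenzyme Q genes 4 were above 0 (median -0.06), with Coq10b at -0.79 and Pdss2 at -0.39 (0.68 as the mean of its probe sets), and of 6 mitochondrial antioxidant genes 4 were (0.23), with Txn2 at 0.81 (-0.23 as the mean of its probe sets) and Gpx1 at 0.64. Of 12 glycolysis genes 8 were above 0 (0.10), with Pgk1 at 1.02 (-0.11 with quantile normalization) and Pkm at -0.70, and Ucp3, the sole uncoupling gene tested, stood at 0.22. Of 76 mitochondrial ribosomal protein genes 64 were above 0, with a median of 0.24 (0.09 without germ-free replicate 1), Mrpl35 being the highest at 1.62. Of 46 cytosolic ribosomal protein genes 43 were, with 0.70 (0.38 without that array), and Rps20 at 1.69 and Rpl27a at 1.64 were highest. In the limma fit with no block none of these was called on all 4 arrays, while Rpl27a was called without germ-free replicate 2 (adjusted p = 0.00754) and Mrpl35 without conventionalized replicate 1 (adjusted p = 0.0448). For the respiratory chain these values were 70 of 84 and 0.30 (-0.02). In the ribosomal lists, as in the respiratory chain, germ-free replicate 1 was often the lowest array, in 51 of 76 and in 37 of 46 genes. The differences between lists were not tested.

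**Figure D5:**
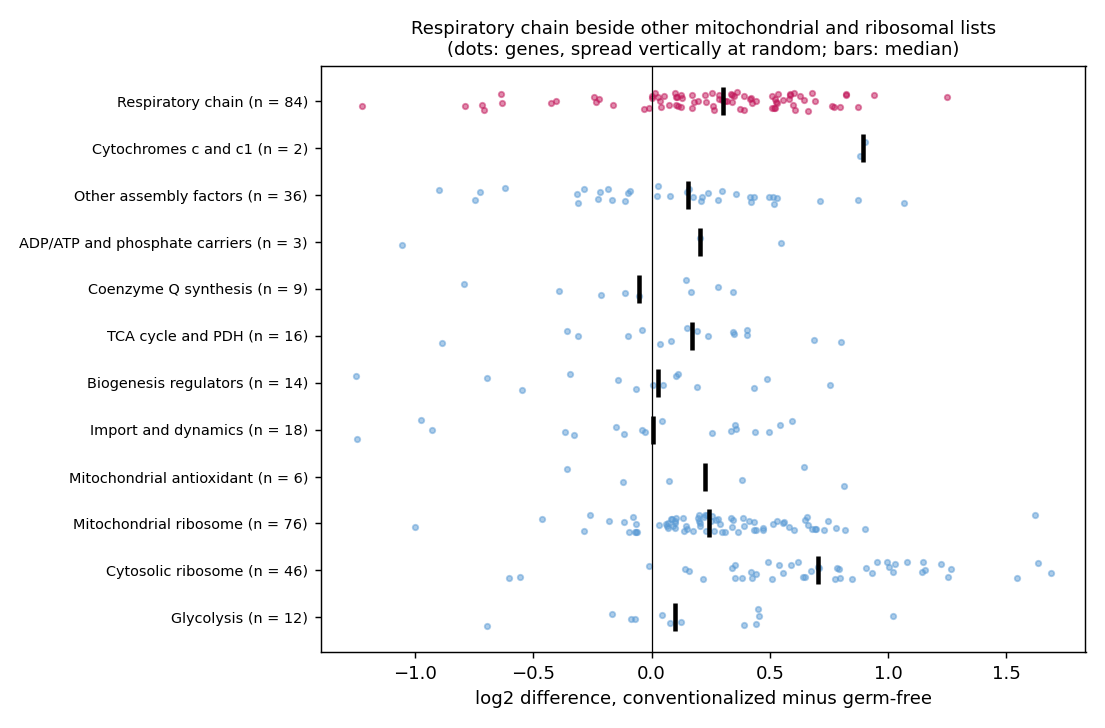
Log2 difference, conventionalized minus germ-free, of the tested genes of each list (dots, spread vertically at random) with the list's median (bars). The cytosolic ribosome has the highest median of the longer lists (0.70), the respiratory chain (0.30) lies near the mitochondrial ribosome (0.24), and regulators of biogenesis (0.03) and import genes (0.01) lie at 0.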

How the data were processed

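Signals were measured on 4 Affymetrix Mouse430_2 arrays, 2 conventionalized and 2 germ-free. The deposited values are linear intensities, 1 per probe set for each array, already scaled by the authors: trimmed by 2% at each end, every array had a mean of 250. The software behind these intensities is not given in the sources used here. Chip type, station and module come from the parameter records, per the file headers. Of 45101 probe sets, 64 are controls and stayed out of the tests. Per the platform annotation, 34958 named 1 gene, 932 several and 9211 none. All 90 members' symbols matched the GRCm38.p6 gene table by gene identifier, 179 probe sets named 1 member, and 10 naming a member beside another gene were not used.

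Values were turned into log2(intensity + 32), which understates changes of dim genes. Probe sets with a mean over the median of all (113.9) were tested, 22491 in all, with limma 3.58.1 in R 4.3.3 (lmFit, eBayes with a variance trend, Benjamini-Hochberg adjustment over all probe sets). The prior degrees of freedom were infinite beside 2 residual ones, so probe sets of like signal share their standard error. The fit was tested on simulated data. The arrays can be split 2 against 2 in 3 ways, so the lowest p a permutation test allows is 0.333, and the number of arrays limits the precision. Genes described singly are the 4 brightest of each class, the 5 highest and 5 lowest differences, tissue forms of subunits and, of each further list, the 2 with the largest difference. Ndufa10, Ndufb1, Ndufb4, Ndufaf5, Atp5a1, Atp5b, Uqcrfs1, Uqcrc1 and Uqcr10 fall outside that rule and were named after their values were seen. The members, lists and motifs were chosen with earlier results of these data known. Correlation of same-numbered arrays' deviations from their group means, over 12113 genes, was -0.14. With 2 arrays per group both same-numbered pairs must give the same value, so it cannot settle whether the arrays are paired. The main fit did not treat the replicate numbers as pairs. Alternatives were other pseudocounts, filters, normalizations and variance priors, a replicate block, leaving out each array, and averaging a gene's probe sets.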

Additional observations from a re-analysis of the deposited data

Results flagged for a closer look

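The 3 control probe sets for 18S ribosomal RNA, which enter no comparison, read higher on both conventionalized arrays than on both germ-free arrays, which singled them out as a signal outside the genes tested. The 3′ probe set had 5868 and 9414 on the conventionalized arrays, against 1859.7 and 2899 on the germ-free arrays, a log2 difference of 1.66. The 5′ probe set differed by 1.15 and the middle one by 0.91. No test was made of these values, and their part in the respiratory chain values was not tested.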

How the results depend on the processing

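No member was called by limma under any alternative run. In the runs that kept all 4 arrays, 0 to 4 members had an unadjusted limma p under 0.05. There were 4 of 74 among the brightest 25%, where 793 of all 11222 probe sets were. With a crossed replicate block there were 4 of 84, where 1797 of 22491 were. Without the variance trend and with the fixed prior there were 0, where 975 and 830 of 22491 were. A smaller and a larger pseudocount, median centring and the brightest 25% kept the members' median above 0. It rests on the germ-free duplicates: leaving out each array gave medians of -0.022 (germ-free replicate 1 left out) to 0.66 (the other germ-free array left out), and 39 to 74 members above 0. By class these ranges were 0.042 to 0.64 for complex I core, -0.14 to 0.51 for its accessory subunits, -0.026 to 0.55 for its assembly factors, -0.45 to 0.30 for complex II, -0.078 to 0.94 for complex III, 0.21 to 0.97 for complex IV and -0.035 to 0.76 for complex V. The assembly factors' median was 0.020 with no filter and 0.31 among the brightest 25%, and that of complex IV 0.041 with quantile normalization. Quantile normalization reversed Atp5d (-0.024), Atp5g3 (-0.40), Atp5j2 (-0.23), Atpif1 (-0.14), Cox5a (-0.0029), Cox6a1 (-0.074), Cox6b1 (-0.19), Cox7a2 (-0.10), Cycs (-0.083), Mdh2 (-0.073), Ndufa13 (-0.081), Ndufb7 (-0.15), Ndufv1 (-0.031), Pgk1 (-0.11) and Uqcrb (-0.29). The mean of all probe sets reversed Cox8c (-0.14), Pdss2 (0.68), Txn2 (-0.23) and Uqcrq (-0.26). Leaving out 1 array reversed, of the genes the naming rule gives, Atp5g3 (-0.20 to 0.80), Atp5h (-0.0020 to 1.22), Atp5j2 (-0.035 to 0.71), Atpif1 (-0.38 to 0.57), Cox4i1 (-0.057 to 1.07), Cox6a2 (-0.28 to 0.85), Cox8c (-0.41 to 0.62), ND5 (-0.43 to 0.12), Ndufaf1 (-0.79 to 0.34), Ndufaf2 (-1.83 to 0.55), Ndufaf4 (-0.018 to 0.64), Ndufb7 (-0.083 to 0.72), Ndufv1 (-0.020 to 0.16), Sdha (-0.25 to 0.59), Sdhd (-1.16 to 1.61), Ucp3 (-0.22 to 0.65), Uqcr11 (-0.047 to 0.44) and Uqcrq (-0.11 to 0.36). Of the other genes named, Atp5a1 (-0.23), Atp5b (-0.76), Uqcrfs1 (-0.28) and Uqcr10 (-0.20) turned without germ-free replicate 1 and Uqcrc1 (0.29) without germ-free replicate 2. The probe sets called across the whole array were 75, against 33 with quantile normalization, 27 with median centring (6 higher, 21 lower, beside 27 higher and 48 lower), 0 without the trend (975 at an unadjusted p under 0.05) and 0 with a prior of 4 degrees of freedom (830), and 41 (without germ-free replicate 2) to 213 (without conventionalized replicate 1) when 1 array was left out. Without germ-free replicate 1 there were 46 and without conventionalized replicate 2 there were 47. The replicate block gave 30 calls, none of them a respiratory chain gene. A crossed replicate block, chosen after seeing the data, gave 228 calls, with Rpl27a and Mrpl35 among them and no respiratory chain gene. The cause of these changes was not tested. Depth of signal limits the dim members: 6 lay under the filter, and standard errors ran from 0.42 to 1.22.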
